A study of Mus musculus with 24 samples.

Results

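The genes described here are 55 members of the machinery that degrades mRNA in the cytoplasm and nucleus. They were chosen by name from a list, with earlier results of these data known. All 55 were matched to a 3′ untranslated region (3′UTR) interval, out of 20868 genes in the tables. They fall into 7 groups by what their proteins do: poly(A) tail binding and the PAN and PARN deadenylases (5 genes), the CCR4-NOT deadenylase with its TOB partners (12), decapping and the LSM ring (14), the XRN exonucleases (2), the RNA exosome with the Ski complex (14), DIS3L2 (1) and nonsense-mediated decay (7).

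Decay of a mammalian mRNA usually begins at its tail. PAN2-PAN3 and then CCR4-NOT shorten the poly(A) tail, which cytoplasmic poly(A)-binding proteins otherwise cover. The shortened end is bound by the LSM ring, the cap is removed by DCP2 with its cofactors, and XRN1 degrades the body from the 5′ end, while the exosome with the Ski complex, or DIS3L2 acting alone, degrades it from the 3′ end. TUT4 and TUT7 add uridines to short tails, and oligo(U) tails are known to be bound by the LSM ring and by DIS3L2. Nonsense-mediated decay is a separate entry route, in which UPF1, SMG1 and the SMG nucleases and adaptors act on transcripts with an early stop codon.

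The cells were c-Kit+ cells of E14.5 fetal liver from C57BL/6 mice, which had been made preleukemic with retroviral Meis1 and Hoxa9. Tut4/7 cDKO cells carried floxed Tut4 and floxed Tut7 alleles with Vav-iCre, a Cre expressed in hematopoietic cells, and control cells came from littermates with the same floxed alleles and no Cre. Cells of both genotypes took up 4-thiouridine (4SU, 2.9 µM) for 12 h and were then chased in medium without it and sampled at 0, 60, 180 and 540 min, with 3 replicates for each genotype and time (24 libraries). SLAM-seq reads 4SU as a T-to-C conversion, so one set of libraries gives both the abundance of a transcript, as reads, and the loss of its labelled copies, as the share of covered T positions read as C.

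Libraries held 4380238 to 7041311 reads in 3′UTRs. The targeted genes checked the labels: Tut4 was 76.5 ± 9.16 CPM (reads scaled to the library's total in 3′UTRs) in control and 22.2 ± 6.92 in cDKO at 0 min (SD, n = 3), and Tut7 was 40.0 ± 5.24 and 18.7 ± 1.81. Both were lower in every cDKO library at each time. Both genotypes held transcripts of progenitor genes at 0 min, with a summed level of 4370 to 4681 CPM in control and 6036 to 7898 in cDKO. Of 10 such genes 9 were tested, of which 1 (Hoxa9) was higher in cDKO and 1 (Spi1) lower, beside 2 higher and 3 lower at 60 and at 180 min, with Kit at 0 min at 76.9 ± 7.93 and 43.1 ± 16.5 CPM and Myb at 724 ± 13.7 and 694 ± 56.9. The genotypes also differed in markers of other myeloid and blood cells. Of 10 mature neutrophil and macrophage genes, 8 were tested at 0 min, of which 6 were lower and 1 higher in cDKO, with a summed level of 7578 to 7913 CPM in control and 2131 to 3065 in cDKO. Of 8 mast cell and basophil genes, 5 were tested and 3 were higher (21.7 to 28.0 against 164 to 322 CPM), with Cma1 and Fcer1a at 0 in both. Of 8 erythroid genes only Hbb-bt was tested, and it was higher in cDKO (summed level 0.752 to 2.12 against 1307 to 1986 CPM), while Alas2, Epor and Hbb-bs were at 0 in both. Of 6 stromal and epithelial genes only Pecam1 was tested and it was higher. The part of these differences in the results below was not tested.

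The abundance of most decay genes did not differ detectably between genotypes. At 0 min 4 of 54 tested members passed an adjusted p of 0.05 (edgeR quasi-likelihood test with Benjamini-Hochberg adjustment over all genes), against 13.4% of the 10186 genes tested. Of these, 1 was higher and 3 were lower, against 6.72% and 6.64% of all genes. At 60 min 7 of 54 passed (20.2% of all genes), 4 higher and 3 lower (9.97% and 10.2%). At 180 min 5 of 54 passed (18.9%), 1 higher and 4 lower (9.1% and 9.78%). At 540 min 5 of 55 passed (19.2%), 3 higher and 2 lower (8.89% and 10.4%). The median log2 fold change of the members was -0.02, 0.00, -0.02 and -0.01 at the 4 times. In all, 13 of 54 members were called at 1 or more times, against 31.7% of genes, 1 was called at all 4 times in the same direction, against 8.31%, and 41 were not called at any. These counts moved with single libraries, and so did the share over all genes. At 0 min the count was 10 without cDKO replicate 2 (21.3% of all genes) and 0 without control replicate 3 (6.62%). It was 1 without control replicate 1, control replicate 2 or cDKO replicate 1 (6.7, 6.08 and 9.73%). At 60 min it was 11 without cDKO replicate 3 (22.7%). At 180 min it was 2, 2 and 3 without control replicate 1, 2 and 3 (11.2, 11.2 and 11.9%). At 540 min it was 2, 3 and 1 without control replicate 1, 2 and 3 (11.3, 13.2 and 11.9%) and 2 without cDKO replicate 1 (12.99%).

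**Figure D1:**
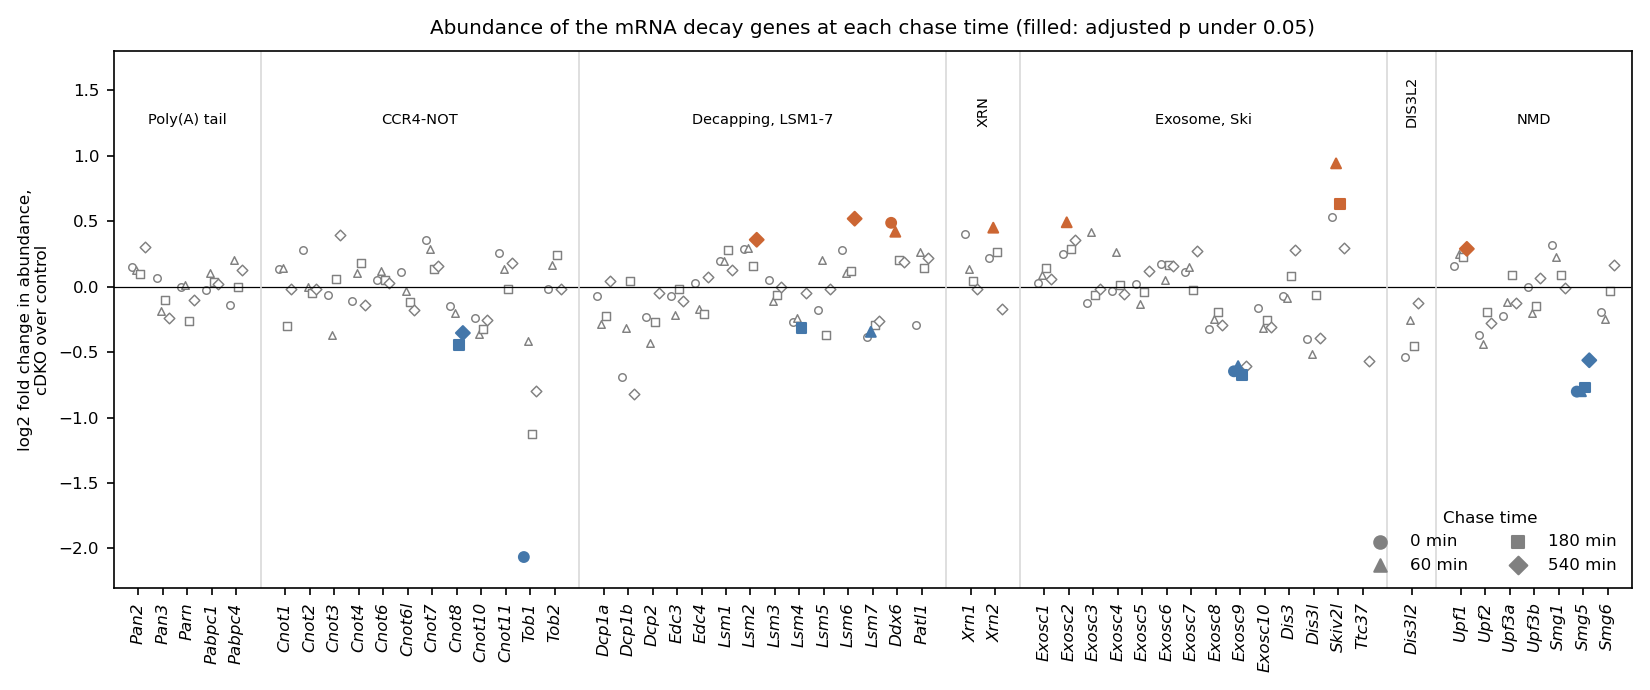
Log2 fold change in abundance of each decay gene, cDKO over control, at 4 chase times (symbols), grouped by complex; filled symbols passed an adjusted p of 0.05 and open ones did not. Most members lie near 0, with Smg5 and Exosc9 the members called lower at 3 or more times and Tob1 the lowest single value (-2.07 at 0 min).

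The members lower in cDKO at the most times lie on chromosome 3. Smg5, an adaptor of nonsense-mediated decay that binds phosphorylated UPF1, has its measured 3′UTR at chr3:88361109-88362337 (mm10, plus strand). At 0 min Smg5 was at 69.9, 85.7 and 81.0 CPM in the control libraries and 45.4, 57.2 and 30.9 in the cDKO libraries. At 60 min it was at 80.8, 69.3 and 74.7 against 44.96, 45.6 and 40.6 CPM. At 180 min it was at 74.99, 75.6 and 72.5 against 46.6, 42.1 and 43.8 CPM, and at 540 min at 45.4, 54.5 and 58.8 against 38.5, 35.5 and 34.2 CPM. Every cDKO library was below every control library at each time. The log2 fold changes of Smg5 were -0.80, -0.80, -0.77 and -0.56 with standard errors of 0.22, 0.11, 0.11 and 0.13 (edgeR adjusted p = 0.0393, 0.000944, 0.000933 and 0.0167). The call at 0 min was lost without any 1 control replicate, without cDKO replicate 1 or with all table lines summed (highest adjusted p 0.154), and the call at 540 min without control replicate 2 or 3 (highest adjusted p 0.0705).

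Exosc9, a core subunit of the exosome ring, is also on chromosome 3 (chr3:36565508-36565727, plus strand), where its interval overlaps that of Ccna2 on the opposite strand. At 0 min Exosc9 was at 77.6, 88.7 and 73.9 CPM in control and 50.5, 57.5 and 43.4 in cDKO, a log2 fold change of -0.65 ± 0.15 (SE, edgeR adjusted p = 0.0229, over 0.05 without any 1 control replicate or without cDKO replicate 1, up to 0.115). At 60 min the levels were 84.7, 70.0 and 82.2 against 53.9, 52.8 and 51.2 CPM (-0.61 ± 0.11, adjusted p = 0.0043). At 180 min they were 75.6, 90.9 and 88.4 against 51.7, 55.7 and 54.5 CPM (-0.67 ± 0.12, adjusted p = 0.00289). At 540 min they were 65.8, 77.0 and 56.0 against 32.7, 55.3 and 43.1 CPM, which did not pass (-0.61 ± 0.19, adjusted p = 0.058), although the groups did not overlap at any time.

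Exosc8, another ring subunit and the only other member on chromosome 3 (chr3:54728679-54728777, minus strand), did not pass at any single time, with means of 190.4 ± 4.71 and 149.99 ± 14.2 CPM at 0 min (log2 fold change -0.33, adjusted p = 0.0774). With counts summed over the 4 times of each replicate it did pass (-0.28 ± 0.08, edgeR adjusted p = 0.0422). Genes on chromosome 3 were lower as a group. On the summed counts 65.2% of its 526 tested genes were called lower in cDKO, with a median log2 fold change of -0.51. On the other autosomes and X the called share was between 9.08 and 16.8% and the median between -0.02 and 0.10. The 2 tested genes on Y were far higher in cDKO (median log2 fold change 11.3), so the sex of the donors may differ between genotypes. The part of donor sex in the results was not tested. Whether the 3 members on chromosome 3 differ for a reason of their own was not tested. Without them, 2 of 51 members were called at 0 min, 5 at 60 min and 3 at 180 min, and 4 of 52 at 540 min.

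**Figure D2:**
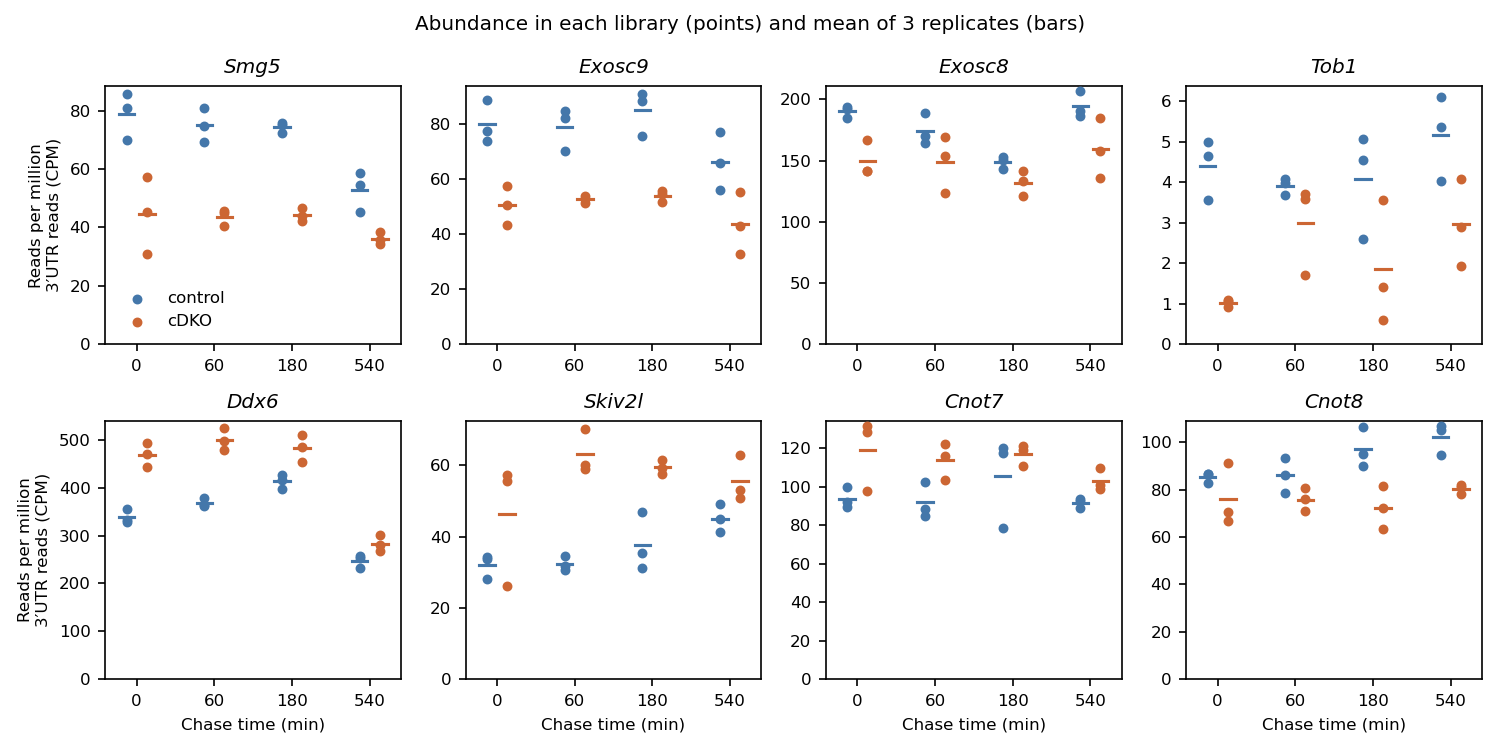
Level (CPM, counts over all 3′UTR reads) of 8 decay genes in each of the 24 libraries by chase time (min), with points for libraries and bars for the mean of 3 replicates. The cDKO libraries of Smg5 and Exosc9 lie below all control libraries at each time and those of Ddx6 above them, while Tob1 reaches at most 6.11 CPM in any library.

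Among the deadenylation genes of both groups, 2 of 17 were called at 1 or more times, under the 31.7% of all genes. The 5 genes of tail binding and PAN or PARN deadenylation were called at no time, and their log2 fold changes on summed counts lay between -0.12 and 0.18. Pabpc1, the main cytoplasmic poly(A)-binding protein, was the most abundant member, at 1464, 1578 and 1554 CPM in control and 1628, 1387 and 1455 in cDKO at 0 min (log2 fold change -0.03 ± 0.09, adjusted p = 0.881). Its paralogue Pabpc4 was at 37.0, 42.5 and 47.0 CPM in control and 48.6, 25.8 and 40.1 in cDKO (-0.14 ± 0.21), and 34.9% of the Pabpc4 reads mapped to more than 1 place, so its level is uncertain.

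Of the catalytic CCR4-NOT paralogues only Cnot8 was called at any chase time (180 and 540 min). Cnot7 and Cnot8 encode alternative deadenylase subunits. Cnot8 was lower in cDKO at 180 min, at 106, 95.3 and 90.2 CPM in control and 72.2, 81.6 and 63.5 in cDKO (log2 fold change -0.45 ± 0.12, edgeR adjusted p = 0.0282, up to 0.126 without any 1 control replicate or cDKO replicate 1). Cnot8 was also lower at 540 min, at 107, 94.6 and 105 against 78.0, 81.2 and 81.9 CPM (-0.35 ± 0.09, adjusted p = 0.028, up to 0.114 under the replicate block or without control replicate 1 or 3 or cDKO replicate 1 or 2). At 0 min the Cnot8 groups overlapped (85.3 ± 2.29 and 76.2 ± 13.3 CPM), and also at 60 min. Cnot7 had the opposite sign, at 91.8, 89.3 and 99.7 CPM in control and 128, 97.8 and 131 in cDKO at 0 min (0.36 ± 0.13, adjusted p = 0.1). On the summed counts Cnot8 was called (-0.30 ± 0.06, adjusted p = 0.00789) and Cnot7 was not (0.23 ± 0.07, adjusted p = 0.0511), and the difference between the paralogues was not tested. The other catalytic pair, Cnot6 and Cnot6l, did not pass at any time. At 0 min Cnot6 was at 191, 219 and 210.2 CPM in control and 196, 218 and 219.6 in cDKO, and the groups overlapped. Cnot6l was at 371, 361 and 363 CPM in control and 413, 389 and 373 in cDKO, where the groups did not overlap (log2 fold change 0.12 ± 0.08).

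Tob1 and Tob2 encode antiproliferative proteins that recruit CCR4-NOT to RNA-bound partners. Tob1 was called at 0 min with the largest log2 fold change of any member there, at 4.65, 3.57 and 5.01 CPM in control and 0.913, 1.06 and 1.10 in cDKO (-2.07 ± 0.45, edgeR adjusted p = 0.0154). These values rest on 4 to 6 reads in each cDKO library and 19 to 33 in each control library, and the call was lost under the replicate block, without any 1 control replicate and without cDKO replicate 1 (adjusted p up to 0.0899). At 60, 180 and 540 min the Tob1 groups overlapped. Tob2 was at 79.8, 97.5 and 106 CPM in control and 104, 70.6 and 103 in cDKO at 0 min and was not called at any time.

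Of 14 decapping genes 5 were called at 1 or more times, in both directions, near the 31.7% of all genes. Ddx6, the helicase that links CCR4-NOT to decapping and to translational repression, was at 328, 356 and 332 CPM in control and 444, 494 and 470 in cDKO at 0 min. At 60 min it was at 365, 363 and 378 against 525, 497 and 478 CPM. These were log2 fold changes of 0.49 ± 0.09 and 0.42 ± 0.06 (edgeR adjusted p = 0.00719 and 0.00131, the first rising to 0.0565 without control replicate 3). At 180 and 540 min the groups still did not overlap (415, 428 and 398 against 511, 486 and 455 CPM, then 257, 253 and 232 against 301, 279 and 268), but the log2 fold changes of 0.21 ± 0.07 and 0.19 ± 0.08 did not pass (adjusted p = 0.0815 and 0.129).

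The LSM ring did not move as a unit. Its subunits encircle oligoadenylated or uridylated ends. Lsm6 was higher at 540 min (333 ± 12.3 and 479 ± 72.0 CPM, log2 fold change 0.52 ± 0.10, edgeR adjusted p = 0.00819) and Lsm2 at 540 min (100 ± 5.60 and 129 ± 14.6 CPM, 0.36 ± 0.10, adjusted p = 0.0383). Lsm7 was lower at 60 min (223 ± 19.6 and 178 ± 18.2 CPM, -0.35 ± 0.10, adjusted p = 0.03) and Lsm4 at 180 min (301 ± 7.52 and 245 ± 30.1 CPM, -0.31 ± 0.10, adjusted p = 0.0438). The cDKO libraries of Lsm7 lay below all control libraries at each time, with 44.4% of its reads mapping to several places. Each of these calls other than that of Lsm6 was lost in 4 or more of 14 alternative fits (7 for Lsm2, 4 for Lsm7 and 8 for Lsm4). Lsm3 and Lsm5 were not called at any time, and for Lsm5 88.0% of reads were multimapping. Lsm1, which makes the cytoplasmic ring distinct, passed only on summed counts (0.19 ± 0.06, adjusted p = 0.0443). Dcp2, Dcp1a, Dcp1b, Edc3, Edc4 and Patl1, the decapping enzyme and its cofactors, were not called at any time. At 0 min Dcp1a was at 13.4, 14.1 and 16.8 CPM in control and 13.9, 10.6 and 17.5 in cDKO, and its paralogue Dcp1b at 7.36, 14.1 and 8.80 CPM in control and 9.13, 6.53 and 2.85 in cDKO. Both overlapped between genotypes.

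For the nucleases, Xrn2, the nuclear 5′-to-3′ exonuclease, was higher at 60 min (75.6 ± 5.84 and 105 ± 5.63 CPM, log2 fold change 0.45 ± 0.10, edgeR adjusted p = 0.0113, 0.0698 at most). Xrn1, its cytoplasmic counterpart, was not called. Skiv2l, the helicase of the Ski complex that feeds RNA to the exosome, was the member with the largest rise. At 60 min Skiv2l was at 31.8, 34.6 and 30.8 CPM in control and 60.2, 70.3 and 58.9 in cDKO (0.94 ± 0.12, adjusted p = 0.00052). At 180 min it was at 35.3, 31.2 and 46.8 against 59.2, 61.4 and 57.7 CPM (0.63 ± 0.15, adjusted p = 0.0155, 0.0796 at most without control replicate 1 or 2). At 0 min cDKO replicate 2 (26.1 CPM) lay below every control library (28.1, 33.8 and 34.4), while the other cDKO libraries were at 55.7 and 57.2, and at 540 min the groups did not overlap (45.1 ± 3.98 and 55.7 ± 6.33 CPM, adjusted p = 0.15). Its partner Ttc37, the Ski scaffold, had 2 to 32 reads a library, too few for a test before 540 min.

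Within the exosome ring Exosc2 was higher at 60 min (61.1 ± 12.7 and 87.1 ± 6.44 CPM, log2 fold change 0.49 ± 0.15, edgeR adjusted p = 0.0476, over 0.05 in 5 of 14 alternative fits), and Exosc10, a nuclear catalytic subunit, was lower only on summed counts (-0.26 ± 0.06, adjusted p = 0.0198). The other ring subunits outside chromosome 3 (Exosc1, Exosc3, Exosc4, Exosc5, Exosc6 and Exosc7) were not called. The catalytic paralogues did not pass either. At 0 min Dis3 was at 62.3, 55.4 and 69.0 CPM in control and 56.2, 62.6 and 57.4 in cDKO and Dis3l at 12.6, 8.27 and 14.7 CPM in control and 8.22, 8.47 and 10.1 in cDKO, with overlap in both.

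Dis3l2, the exonuclease known for preferring uridylated RNA, was at 11.8, 9.58 and 13.2 CPM in control and 10.96, 7.24 and 5.48 in cDKO at 0 min. Its log2 fold changes at 0, 60, 180 and 540 min were -0.54 ± 0.31, -0.25 ± 0.26, -0.45 ± 0.27 and -0.13 ± 0.20, and the groups overlapped at each time. The lowest adjusted p was 0.286, with 25 to 112 Dis3l2 reads a library.

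In nonsense-mediated decay Upf1, the central helicase, was higher at 540 min (171 ± 9.13 and 210 ± 5.42 CPM, log2 fold change 0.29 ± 0.07, edgeR adjusted p = 0.0245, up to 0.0971 under the replicate block or without 1 of 3 libraries, control replicate 1 or 3 or cDKO replicate 1). Its interval overlaps those of Cers1 and Gdf1 on the other strand. Upf2, Smg1 and Smg6 were not called, nor were the paralogues Upf3a and Upf3b. At 0 min Upf3a was at 5.81, 11.1 and 8.04 CPM in control and 5.48, 6.18 and 9.42 in cDKO and Upf3b at 58.7, 49.4 and 55.1 CPM in control and 51.1, 54.9 and 55.2 in cDKO, with overlap in both.

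When counts were summed over the 4 times, which raises depth while keeping 3 replicates for each genotype, 13 of 55 members passed, 6 higher and 7 lower, against 30.6% of all genes. Leaving out chromosome 3, 10 passed, of which 4 were lower. The libraries of 4 members did not overlap between genotypes at any of the 4 times (Lsm7, Ddx6, Exosc9 and Smg5), against 14.4% of all genes.

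Further genes of the pathway were taken from a list of cofactors and a list of adaptors. Of 36 tested cofactors outside the 55 (BTG proteins, other CCR4-NOT, exosome and surveillance factors) none was higher and 2 were lower at 0 min, under the 6.72% and 6.64% of all genes. Btg2, an antiproliferative partner of CNOT7 and CNOT8, fell from 10.5 ± 4.28 to 3.01 ± 0.681 CPM (log2 fold change -1.80 ± 0.40, edgeR adjusted p = 0.0184). Rbm8a, a core protein of the exon junction complex, fell from 509 ± 40.9 to 375 ± 5.78 CPM (-0.43 ± 0.09, adjusted p = 0.0148). Of 24 tested RNA-binding adaptors, 1 was higher and 2 were lower, near the same shares. Khsrp, which binds AU-rich elements, rose from 349 ± 23.7 to 446 ± 25.6 CPM (0.37 ± 0.09, adjusted p = 0.0327). Ythdf3, a reader of m6A, fell from 139 ± 7.70 to 101 ± 2.40 CPM (-0.45 ± 0.10, adjusted p = 0.0188), and Igf2bp3 from 241 ± 6.58 to 193 ± 6.93 CPM (-0.31 ± 0.08, adjusted p = 0.0441). At 60, 180 and 540 min the cofactors had 1, 1 and 2 genes higher and 3, 2 and 3 lower, and the adaptors 2, 1 and 1 higher and 3, 3 and 5 lower, beside 8.89 to 9.97% of all genes higher and 9.78 to 10.4% lower. Genes of these lists were not split by chromosome, so the shift on chromosome 3 was not set apart in their values and counts.

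Within control, 10 of 55 members differed in abundance between 540 and 0 min, against 16.2% of all genes. Each chase time is a batch in the labels, so time and batch cannot be told apart. Cnot6l, Edc3, Xrn2 and Skiv2l were higher at 540 min (log2 fold changes 0.27, 0.46, 0.39 and 0.45; 8.06% of all genes). Pabpc4, Lsm4, Ddx6, Exosc1, Exosc2 and Smg5 were lower (-0.43, -0.30, -0.49, -0.51, -0.54 and -0.61; 8.18% of all genes). The count was 5 without control replicate 3 (5.7% of all genes). Within cDKO only Ddx6 passed (-0.77 ± 0.09, edgeR adjusted p = 0.0391), against 0.117% of genes, and not when any 1 cDKO replicate was left out, where its adjusted p reached 0.999. Under a replicate block 1 member and 1.25% of all genes passed. The change over the chase differed between genotypes for 0 of 55 members by edgeR (0% of 10651 genes), and for 0 by DESeq2.

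The chase itself gave the decay of these transcripts. A half-life was fitted where at least 100 T positions were covered in all 24 libraries, which 52 members met and Tob1, Ttc37 and Upf3a did not. Conversion rates were divided by the genotype's mean at 0 min, and an exponential from 1 to 0 was fitted. For 28 of the 52 the 3 rates at 0 min had an SD under 0.3 of their mean in both genotypes, the bound the study used. The other 24 are given as less certain. This split depended on single cDKO libraries. At 0 min the rate over all 3′UTRs was 0.542% in cDKO replicate 3, against 0.821 and 0.845% in cDKO replicates 1 and 2. Without cDKO replicate 3, 38 members and 5959 genes were within the bound, against 28 and 3712 with all libraries. Without cDKO replicate 1 or 2, 14 and 16 members were.

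In control the half-lives of the 52 members had a median of 189.7 min, against 199 min for the 9256 genes fitted the same way. They ran from 77.6 min for Cnot4 to 991 min for Lsm4. Of the 52, 6 were above the 90th percentile of all genes (442 min) and 1 was below the 10th (89.8 min). Half-lives over 540 min, reached by 5 members, extend past the last sample.

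The longest-lived were tail-binding proteins and LSM ring subunits. Labelled Pabpc1 was lost slowly, with rates of 1.34, 1.35 and 1.31% at 0 min and 0.836, 0.912 and 0.802% at 540 min in control, 63.7 ± 4.22% of the start. Lsm4 kept 60.7 ± 13.5%, Pabpc4 54.8 ± 7.82%, Lsm7 45.4 ± 7.38% and Lsm5 42.6 ± 10.1%. Their half-lives were 918 min for Pabpc1, 991 min for Lsm4, 630 min for Pabpc4, 573 min for Lsm7 and 487 min for Lsm5, of which Pabpc4 was outside the SD bound. The multimapping reads of Lsm5, Lsm7 and Pabpc4 (above) enter these rates too. Dis3l also had a long fit (649 min), but its replicate fits spanned 104 to 10000 min, the upper limit, and it gives no usable value.

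CCR4-NOT transcripts had a median of 145 min over 11 members and none above 211 min in control. Within the SD bound the median was 175 min for 6 CCR4-NOT members, against 149 min for 5 members of nonsense-mediated decay, so the order of the groups depended on the bound. Cnot4, an E3 ligase associated with the complex, had rates of 1.74, 1.67 and 2.33% at 0 min and 0.561, 0.309 and 0.628% at 180 min. By 540 min it was at 4.53 ± 0.0959% of the start, with replicate half-lives of 62.8 to 104 min. Tob2 (103 min) was at 4.75 ± 1.99% at 540 min and Cnot8 (116 min) at 4.28 ± 1.25%. Outside the complex, the exosome subunit Exosc6 (95.6 min) and the decapping scaffold Edc3 (106 min) were as short, and the replicate half-lives of all 5 genes overlapped one another. The group medians in control were 427 min for tail binding and PAN or PARN (5 genes), 231 min for exosome and Ski (13), 209.7 min for XRN (2), 189.7 min for decapping (14) and 171 min for nonsense-mediated decay (6). The value of 427 min is the fit of Parn, which was outside the SD bound. The control rates of Parn rose from 0.929, 1.52 and 1.30% at 0 min to 1.79, 2.17 and 1.98% at 60 min, which a falling exponential could not follow. Of those 5 genes 2 were within the bound, Pan3 (155 min) and Pabpc1 (918 min). Groups differ in size and no test was made between them.

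**Figure D3:**
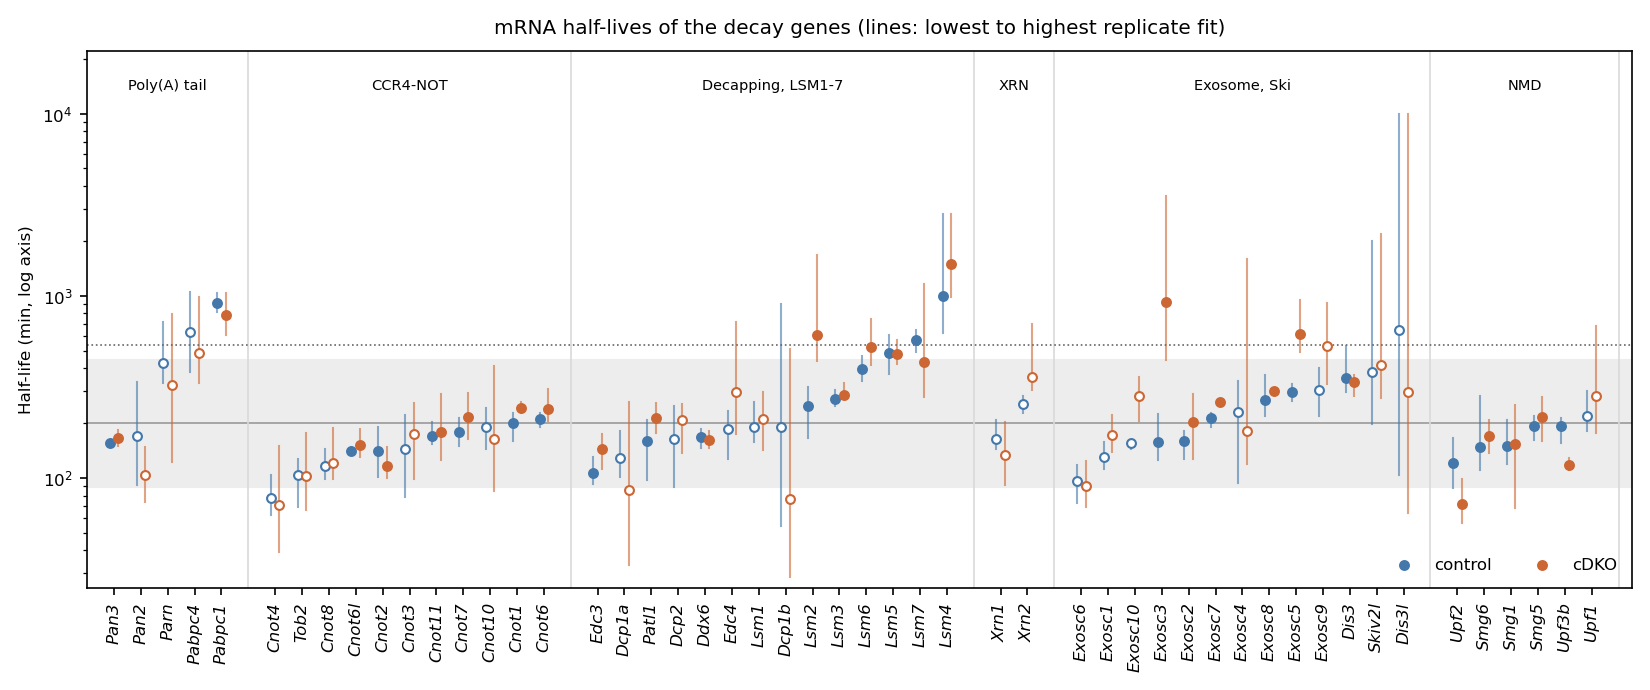
Half-lives (min, log axis) of 51 decay genes in control and cDKO, by complex and in order of the control value; lines join the lowest and highest of 3 replicate fits, open points lie outside the SD bound at 0 min, and Dis3l2 is left out because its cDKO fit reached the upper limit. The grey band spans the 10th to 90th percentile of all genes in control (89.8 to 442 min), the grey line is their median and the dotted line the last chase time (540 min). The points of the CCR4-NOT members other than Cnot4 lie within the band, and in control Pabpc1, Pabpc4, Lsm4, Lsm5, Lsm7 and Dis3l lie above it.

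The 3′UTR sequences of short-lived and long-lived members can be set beside these values. A GENCODE transcript whose 3′UTR length was within 3 bases of the measured interval was found for 30 of the 55 members, 29 of them with a half-life. The motifs counted were read on the transcript strand only: ATTTA and the longer TATTTAT, which contains it and is the core of AU-rich elements, and TGTANATA, the Pumilio recognition motif. ATTTA was present in 62.1% of the 29 and in 67.2% of the 4228 genes with a half-life, TATTTAT in 27.6 and 28.8%, and TGTANATA in 27.6 and 25.02%. In control the 8 members with TATTTAT had a median half-life of 159 min and the 21 without it 214 min, beside 155 and 225 min over all genes. For TGTANATA the medians were 150 and 193 min, beside 158 and 222 min. The 3′UTRs with a motif were longer (a median of 3547.5 against 441 bases for TATTTAT), so motif and length cannot be told apart, and a match is no evidence of a bound site.

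The windows below show how the motifs (capitals) sit in 4 members with half-lives of 116 to 155 min, each as 30 bases from the 5′ end. Positions count from the first base after the stop codon.
Cnot8 940-969 of 1006: tttaagatgctTGTAAATAttatttatgtt
Cnot8 949-978 of 1006: cttgtaaatatTATTTATgtttttaatttt
Dcp1a 1566-1595 of 3752: tcatgatagtgTGTAAATAtagcaaccaaa
Cnot6l 6460-6489 of 6847: ctttatttttcTATTTATtacacagttgat
Pan3 1543-1572 of 2115: gctttgttttaTATTTATttttcatttcat

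In Cnot8 the Pumilio motif and the AU-rich core are 1 base apart near the end of the 3′UTR (positions 951 to 958 and 960 to 966). Among long-lived members with a matched 3′UTR, Pabpc4 (322 bases) held none of the motifs and Pabpc1 (441 bases) held ATTTA at 3 places. Lsm6, which holds both TATTTAT and TGTANATA, had a half-life of 394 min.

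Comparison of half-lives between genotypes started from unequal labelling. Over all 3′UTRs the conversion rate at 0 min lay between 1.62 and 1.67% in control libraries and between 0.542 and 0.845% in cDKO libraries. For 46 of the 52 members the 3 cDKO rates at 0 min were all below the 3 control rates. At 540 min the rate over all 3′UTRs was 0.305 to 0.330% in control libraries and 0.162 to 0.209% in cDKO libraries.

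**Figure D4:**
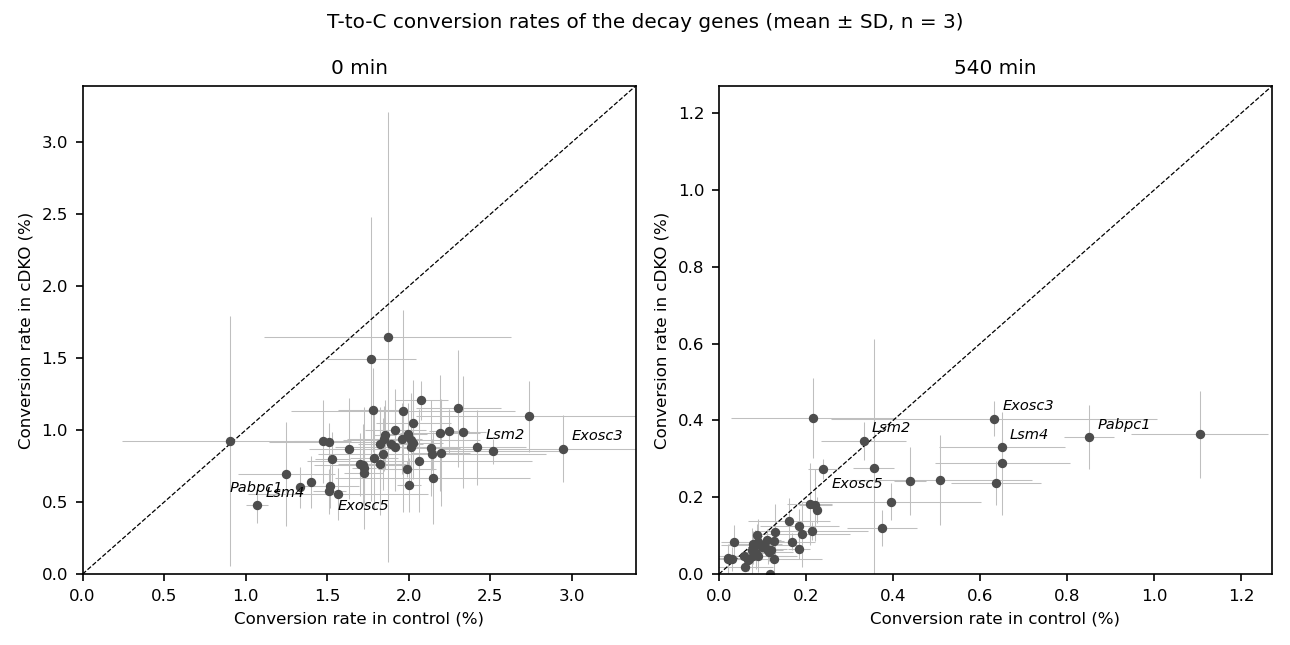
Conversion rate (%) of 51 decay genes in cDKO against control at 0 min (left) and 540 min (right), with points and error bars for the mean and SD of 3 replicates and a dashed line where the genotypes are equal. At 0 min nearly all members lie below the line, and at 540 min the points lie on both sides of it.

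Among the 28 members within the SD bound half-lives had a median of 193 min for control and 228 min for cDKO. The median log2 ratio was 0.16, beside 0.19 over 3712 genes. With cDKO and control fits set against each other by replicate number, which does not pair them, the medians were 0.26, 0.18 and 0.28 within the bound and -0.01, -0.06 and 0.46 over all 52 members. Of the 28, 20 had the longer half-life in cDKO (71.4%), against 68.6% of all genes. Without the bound, 32 of 52 did (61.5%), against 65.5%. The sign depended on a background. With a conversion rate of 0.001 subtracted from every rate, 17 members could be fitted within the bound and their median log2 ratio was -0.02.

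The genotype by hour term of an edgeR fit on conversions passed for 0 of 52 members, against 0.13% of 9207 genes. At an unadjusted p of 0.05 there were 9 (17.3%), against 17.2% of genes, and DESeq2 called 2, against 3.01% of genes. The term was positive, a slower loss in cDKO, for 43 of 52 members (82.7%), against 80.7%. With the library-wide rate in the offset, the term is relative to the loss over all 3′UTRs. It was then positive for 31 (62.1% of all genes). In that fit 1 member passed, Pabpc1, with a faster loss in cDKO relative to that overall loss (-0.06, edgeR adjusted p = 0.044). Without that offset the term of Pabpc1 was -0.01 ± 0.03 (edgeR adjusted p = 0.847). With a background of 0.001 subtracted the genotype by hour term was positive for 29 members (61.4% of all genes).

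Exosc5, a ring subunit of the exosome, had the lowest p of the members. Its rates at 0 min were 1.54, 1.60 and 1.40% in control and 0.698, 0.625 and 0.4001% in cDKO. At 540 min they were 0.223, 0.216 and 0.281% against 0.279, 0.297 and 0.245%, so the absolute rates overlapped. As a share of the start, 15.9 ± 2.34% was left in control and 47.6 ± 4.599% in cDKO, and the half-lives were 296 and 617 min. The term was 0.18 ± 0.05 log2 units per h (edgeR adjusted p = 0.0765; between 0.00797 and 1.00 in 12 alternative fits, of which DESeq2 and the replicate block passed).

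Lsm2, of the LSM ring, was next. It had 2.72, 2.41 and 2.12% at 0 min in control and 0.998, 1.06 and 0.582% in cDKO, and 0.344, 0.422 and 0.230% against 0.385, 0.364 and 0.292% at 540 min. The shares left were 13.7 ± 4.00 and 39.4 ± 5.54%, the half-lives 248 and 605 min, and the term 0.15 ± 0.05 (adjusted p = 0.109, 0.0198 in DESeq2). In both genes every cDKO replicate had a longer half-life than every control replicate, although the fitted curves ran above the measured shares at 540 min in both genotypes.

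Such separation of the replicate half-lives was seen for 7 of 52 members (13.5%), against 15.7% of genes. In 6 the cDKO values were higher (Lsm2, Xrn2, Exosc3, Exosc5, Exosc7 and Exosc10). The closest-set was Exosc7, with control fits of 192, 227 and 222 min against cDKO fits of 254, 266 and 265 min. Exosc3 had the widest gap (157 and 920 min), but its cDKO rates rose from 0.723, 1.14 and 0.7502% at 0 min to 1.83, 1.76 and 0.840% at 60 min, which a falling exponential could not follow, and its genotype by hour term did not pass (0.07 ± 0.07, adjusted p = 0.573). In 1 member, Upf3b, the cDKO values were lower, at 114, 129 and 110 min against 156, 212 and 215 min. Its genotype by hour term had the opposite direction, a slower loss in cDKO, and did not pass (0.06 ± 0.08, edgeR adjusted p = 0.705).

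Other complexes gave no call. The lowest p in each was Cnot6l in CCR4-NOT (0.10 ± 0.04, edgeR adjusted p = 0.166), Dcp1b after Lsm2 in decapping (-0.82 ± 0.31, adjusted p = 0.178), Xrn2 among the exonucleases (0.12 ± 0.06, adjusted p = 0.263), Smg5 in nonsense-mediated decay (0.23 ± 0.10, adjusted p = 0.215) and Pabpc4 among tail binding genes (-0.06 ± 0.05, adjusted p = 0.536). Cnot6l was at 4.39 ± 0.201% of the start at 540 min in control and 8.21 ± 1.11% in cDKO, with half-lives of 140 and 151 min. Its term changed sign without the 540 min libraries (-0.04). Ddx6, higher in abundance in cDKO, had half-lives of 167 and 161 min, and Smg5, lower in abundance, 192 and 216 min. The cDKO fit of Dis3l2 reached the upper limit of 10000 min and gives no half-life.

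**Figure D5:**
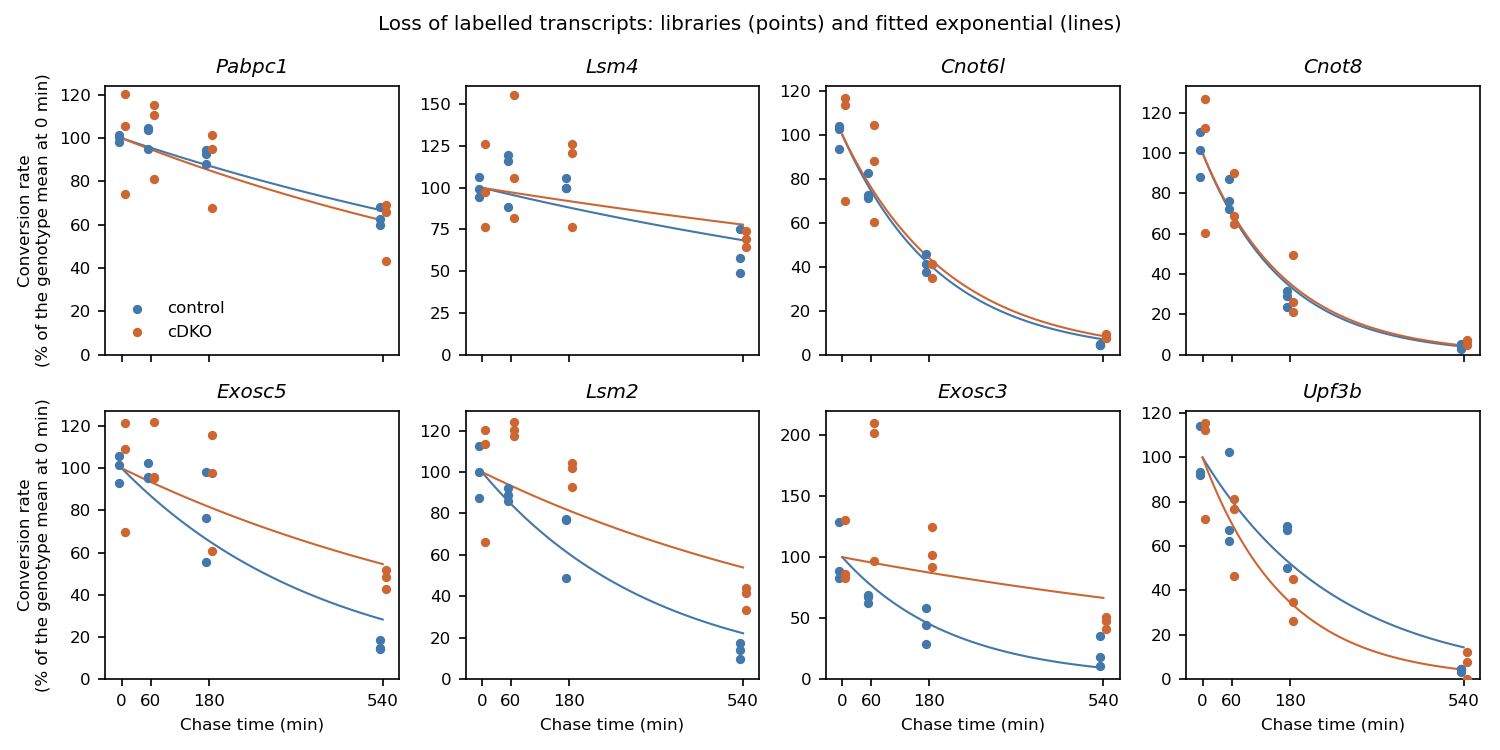
Conversion rate of 8 decay genes over the chase (min) as a percentage of the genotype's mean at 0 min, with points for libraries (3 for each genotype and time, set slightly apart) and lines for the fitted exponentials. Pabpc1 and Lsm4 keep over 40% at 540 min in both genotypes, Cnot6l and Cnot8 fall to under 10%, and Exosc5 and Lsm2 keep more in cDKO than in control.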

How the data were processed

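QuantSeq 3′ libraries (85-base single-end reads) were made from biological triplicates of each genotype and chase time. The authors ran SlamDunk 0.4.3 over mm10 (GRCm38) 3′UTR intervals and deposited, for each library, raw counts of reads, covered T positions and conversions, with CPM per interval and the conversion rate as a fraction. Only the deposited counts were used here, and CPM was recomputed over 3′UTR reads.

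Of 39419 lines, 99.2% were matched to a symbol, and non-overlapping intervals were summed to 20868 genes. Abundance was tested with edgeR 4.0.16 (quasi-likelihood, TMM, default expression filter, Benjamini-Hochberg over all genes tested) within each chase time, since the labels make each chase time a batch. Half-lives were fitted by least squares between 1 and 10000 min for genes with 100 covered positions in every library, and carry no test. Genes whose normalised rate at 0 min had a mean above 0.8 and an SD below 0.3 made the main comparison. Rates were divided by their own genotype mean at 0 min, so the bound on the mean could remove no gene and only the SD bound acted. The genotype by hour term was fitted with edgeR on conversions with log T coverage as offset, for genes with 100 covered positions in every library and 50 conversions in all. 3′UTR windows came from GENCODE vM39 transcripts, from which no coordinates were taken. Alternatives included DESeq2 1.42.0, other filters and normalisations, a replicate block and leaving out libraries. The scripts were tested on simulated data.

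All 55 genes could be named. Library values were given for genes called at 2 or more times and, at 0 min, for paralogue pairs, half-lives for the 3 shortest and 3 longest and the lowest p in each complex, and up to 3 genes in each direction from each further list. The members and lists were chosen with earlier results of these data known. Replicate numbers did not pair control with cDKO (correlations of deviations from -0.05 to 0.06), nor 0 with 540 min in control. They did within cDKO (0.25, 0.54 and 0.63).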

Additional observations from a re-analysis of the deposited data

How the results depend on the processing

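Over 14 alternatives for each chase time, the count of called members at 0 min (4) was 7 with all 24 libraries in one fit and 0 to 10 when 1 library was left out, that at 60 min (7) was 5 to 11, that at 180 min (5) was 2 to 6 and that at 540 min (5) was 1 to 7. Counts summed over chase times gave 13. For 540 against 0 min, the control count (10) was 5 to 7 with 1 replicate left out at both times, and the cDKO count (1) was 0 with all lines summed and 0 to 0 with 1 replicate left out. The genotype by hour count (0) was 2 with DESeq2, 1 with the library-wide rate in the offset, 1 with a replicate block and 0 with any 1 replicate of a genotype left out at all its chase times. The term of Cnot6l reversed without the 540 min libraries (-0.0432).

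Under the replicate block the counts of calls were 3, 7, 5 and 4 at the 4 times, 10 in control and 1 in cDKO for 540 against 0 min, and 0 for the difference. The numbers pair the samples only within cDKO, where for 540 against 0 min the block left the count of members at 1. It raised the share of all genes called there from 0.117 to 1.25%. For the genotype by hour term the block gave 1 member and 0.641% of all genes, against 0 members and 0.13% without it.

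The median log2 half-life ratio (0.16) was 0.122 to 0.199 with 1 replicate left out at all its chase times. It reversed with a background of 0.001 subtracted (-0.0202), and, in settings chosen after seeing the data, was -0.0176 with that background and no SD filter and 0.278 with a log-linear fit and no SD filter. The cause was not tested. Of the values of single genes under alternatives, 538 kept their direction and side of the threshold, 78 lost the call, 3 gained it and 1 reversed. These values include the targeted genes Tut4 and Tut7. They also include genotype by hour terms that the main fit did not call, which count as kept when they stayed uncalled. The 538 thus overstate how well the calls of the decay genes held. Low read counts limit Tob1, Ttc37, Upf3a, Dcp1b, Dis3l and Dis3l2.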
